A study of Mus musculus with 18 samples.

Results

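Fatty acid oxidation and the target genes of the nuclear receptor PPAR-alpha were followed as 29 named genes of the 18946 genes in the deposited table. The members were chosen by symbol, and all 29 were present and passed the filter on low values. The series compared livers of 10 Old and 8 Young male mice of the inbred strain C57BL/6J. The age labels read 19.76 months for Old and 6.18 months for Young mice, while elsewhere in the labels the Old mice are said to be 20 or 21 months of age. Every mouse of both ages had been fasted overnight and had then undergone a hyperinsulinemic-euglycemic clamp, that is, an insulin infusion with glucose given to keep its blood level steady, with labelled lactate and palmitate infused as tracers. Neither age had a group without insulin. RNA came from 5 Old and 3 Young livers by the AllPrep kit and from 5 Old and 5 Young livers by the RNeasy kit, with ribosomal RNA removed before sequencing, per the labels' protocols. Mitochondrial fat oxidation in the liver is given in the labels as a flux for every mouse.

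Fatty acids enter oxidation as acyl-CoA. The carnitine shuttle carries long chains into mitochondria, where the beta-oxidation spiral shortens the chain stepwise and hands electrons to the respiratory chain through electron transfer flavoprotein. Peroxisomes shorten very long and dicarboxylic acids, and microsomal Cyp4a enzymes start omega-oxidation by hydroxylating the end of the chain. PPAR-alpha, activated by fatty acids, is the main regulator that raises these genes in the fasted rodent liver. Insulin is known to restrain the pathway after feeding.

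Reads recovered from the deposited values came to 85790735 to 127487820 per library over the listed genes. The lowest number for a member was 1370 reads, in Acot2, so counting error was small beside the spread between mice. Levels are TPM, reads per gene length scaled to a fixed total, divided by a factor per library and called scaled TPM. Hepatocyte markers were abundant in every library, with all 8 present and a sum of 89250 to 134511 scaled TPM in Old and 82808 to 126967 in Young livers. Macrophage markers summed to 234 to 668 in Old and 210 to 438 in Young livers, and T and B cell markers to 4.82 to 17.6 and 3.12 to 6.89. No gene of any marker list was called between the ages (adjusted p under 0.05 in the limma test of age), with a median log2 fold of 0.22 for the macrophage list and 0.40 for the T and B cell list, and their part in the results was not tested. Old replicate 14 stood apart. It had the lowest level of all 18 livers in 19 of the 29 members, and over all genes tested its median difference from the Young mean was -0.13 log2 units, so results that rest on it are given with and without it. Its hepatocyte markers stood apart as well. Their sum was the highest of all 18 livers, with Alb alone at 103729 scaled TPM, whereas Cps1, Hnf4a and Tat were the lowest of all, at 947, 239.5 and 169.7 scaled TPM, against 1853 to 3070.1, 342 to 516 and 971 to 1683 scaled TPM in Young livers. The part of these markers in the results was not tested. In bulk liver, fewer cells of a type and less RNA per cell cannot be told apart.

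The sequences shown here stand upstream of Ehhadh, Etfa and Hadha, in the build GRCm38.p6 of RefSeq. Of the 29 members, 21 had an entry in the table of promoters. Entries were not found for Acaa2, Angptl4, Crat, Cyp4a10, Cyp4a14, Cyp4a31, Decr1 and Vnn1. The windows of 250 bases before and 50 after each start were searched on both strands for AGGTCANAGGTCA, on the other strand TGACCTNTGACCT, the direct repeat bound by PPAR-alpha with its partner RXR. With up to 2 of the 12 fixed letters differing, 2 of the 21 member windows held it (9.52%), against 1268 of 32851 windows of all genes (3.86%). With at most 1 letter differing none of the member windows did, against 0.554% of all windows. The matches lay in Etfa, 77 bases before the start, and in Slc25a20, 6 bases after it, with the letters AGGTGAAAGGTCG. Such a match describes letters only. Hadha and Hadhb, the alpha and beta subunits of the mitochondrial trifunctional protein, start in opposite directions with 272 bases between them, so that the stretch before Hadha is shared. The 250 bases before the start of Ehhadh, which alone among the members was called between the ages, of Etfa, with the match in capitals, and of Hadha are given 5′ to 3′ on the strand of the gene.
Ehhadh, chr16:21787835-21788084, minus strand: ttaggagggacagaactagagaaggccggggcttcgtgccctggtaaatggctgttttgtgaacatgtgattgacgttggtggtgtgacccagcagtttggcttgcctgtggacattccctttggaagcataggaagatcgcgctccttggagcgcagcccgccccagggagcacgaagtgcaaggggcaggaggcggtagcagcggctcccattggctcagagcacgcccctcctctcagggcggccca
Etfa, chr9:55512244-55512493, minus strand: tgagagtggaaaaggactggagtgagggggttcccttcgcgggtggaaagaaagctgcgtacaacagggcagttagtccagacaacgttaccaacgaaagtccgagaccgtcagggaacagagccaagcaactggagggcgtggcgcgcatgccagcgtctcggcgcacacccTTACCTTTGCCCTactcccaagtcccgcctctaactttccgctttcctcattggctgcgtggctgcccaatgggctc
Hadha, chr5:30154981-30155230, minus strand: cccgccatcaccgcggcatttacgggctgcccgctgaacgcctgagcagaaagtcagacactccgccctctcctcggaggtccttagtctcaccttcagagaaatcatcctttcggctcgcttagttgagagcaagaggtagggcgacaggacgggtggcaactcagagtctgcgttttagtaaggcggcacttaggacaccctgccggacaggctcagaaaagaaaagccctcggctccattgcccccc

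The labelled liver fat oxidation flux was lower in Old mice. In the order of the replicate numbers, Old mice 5, 6, 7, 8, 9, 14, 15, 16, 17 and 18 had fluxes of 2.86, 2.93, 2.50, 2.09, 2.48, 3.04, 1.90, 2.35, 2.44 and 2.71 in the units of the labels, which are not named there. Young mice 1, 2, 3, 4, 10, 11, 12 and 13 had 3.12, 2.92, 3.46, 2.89, 2.75, 3.05, 3.95 and 3.21. The groups overlapped only at the lower Young and the upper Old end. Flux averaged 2.53 ± 0.365 in Old (SD, n = 10) and 3.17 ± 0.383 in Young mice (SD, n = 8), which was 20.2% lower in Old (two-sided exact permutation test, p = 0.00151, adjusted p over 3 flux labels = 0.00151). Among AllPrep mice the difference was -0.499 (exact permutation p = 0.0536, n = 5 and 3) and among RNeasy mice -0.722 (exact permutation p = 0.0635, n = 5 and 5), where the smallest p allowed was 0.0179 and 0.00397. In all 18 mice the label equalled the citrate synthase flux minus the pyruvate dehydrogenase flux to within 0.005, so these 3 labels are not independent. Citrate synthase flux was 2.79 ± 0.400 in Old (SD, n = 10) and 3.67 ± 0.323 in Young mice (SD, n = 8; exact permutation test, adjusted p = 0.00048).

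**Figure D1:**
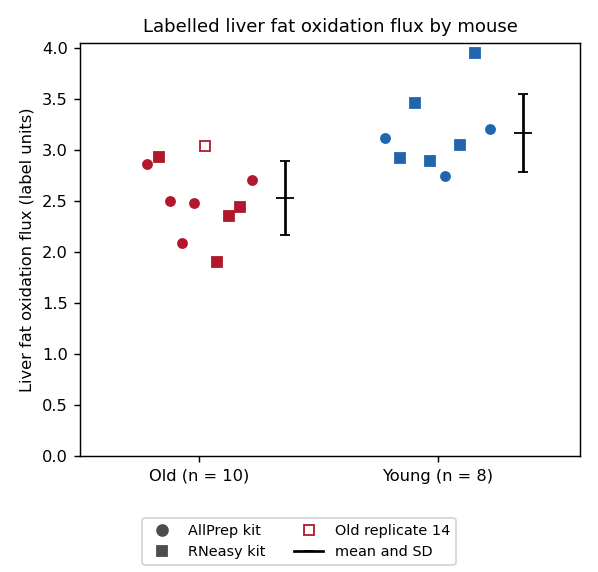
Labelled liver fat oxidation flux (y axis, units of the labels) for each of 10 Old (left) and 8 Young mice (right), with circles for the AllPrep kit, squares for the RNeasy kit and an open square for Old replicate 14. Black bars give the mean and SD, and the Old values of 1.90 to 3.04 lie mostly below the Young values of 2.75 to 3.95.

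Of the 29 members only Ehhadh passed the test between the ages, and it was lower in Old livers. In all, 26 members had a fold below 0, against 52.7% of all 13895 genes tested, with a median log2 fold of -0.17 for the members and -0.011 for all genes. Age was tested with limma on log2(scaled TPM + 0.5), with the kit as a term and Benjamini-Hochberg adjustment over all genes tested. Of all genes, 2.09% were called higher and 2.35% lower in Old, at an adjusted p under 0.05. No member was called higher and 1 was called lower, near the background. At an unadjusted p under 0.05 there were 7 members, or 24.1%, against 23.4% of all genes. In no member did the groups stop overlapping, against 0.403% of all genes.

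The median fold of the members varied with the kit taken and with Old replicate 14. The median log2 fold of the members was -0.27 among AllPrep libraries, with 26 of 29 below 0, against 50.7% of all genes. Among RNeasy libraries it was -0.11, with 25 of 29 below 0, against 53.5% of all genes. Without Old replicate 14 it was -0.11 over both kits, with 23 of 29 below 0, against 49.2% of all genes. Among RNeasy libraries without that liver it was 0.0081, with 13 of 29 below 0, against 47.3% of all genes. Without the factor per library, 25 of 29 were below 0, against 37.3% of all genes. The median of all genes then moved to 0.055. The calls over all genes stood at 341 higher and 188 lower, against 290 higher and 327 lower with the factor. Old mice weighed 35.1 to 55.0 g at the clamp and Young mice 26.6 to 34.8 g, ranges that do not overlap, so age and body weight cannot be told apart. With weight as a further term no member was called, 20 of 29 had folds below 0 and the median was -0.10. Of all genes 58.4% were then below 0, with a median of -0.049, and 3 were called higher.

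**Figure D2:**
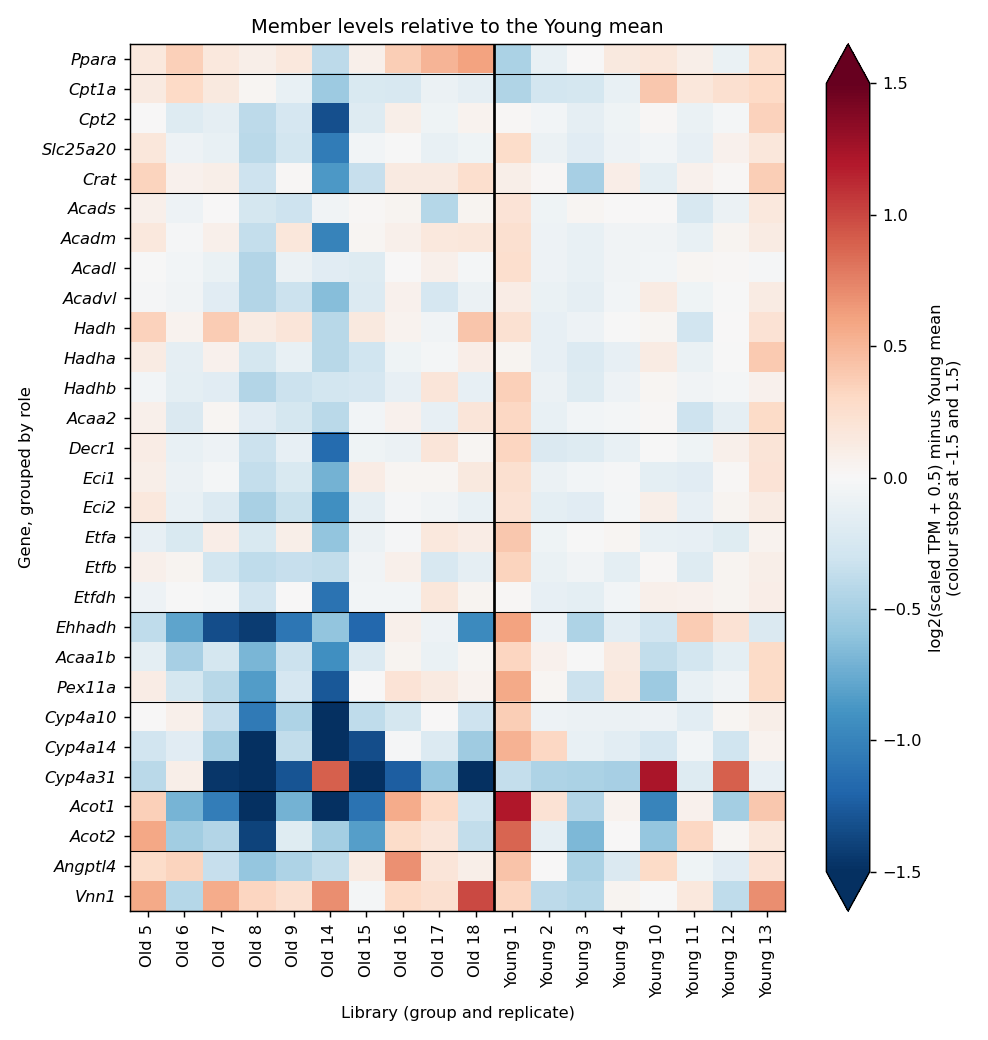
Level of each of the 29 members (rows, in groups by role) in each library (columns, 10 Old at the left and 8 Young at the right), as log2(scaled TPM + 0.5) minus the Young mean, in colours that stop at -1.5 and 1.5. Old replicate 14 forms a mostly blue column, below the Young mean in 27 of 29 members, and the row of Acot1 has the largest SD in Old livers, 1.15 log2 units.

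Ppara, which encodes PPAR-alpha, had a fold above 0 that did not pass the test. It had a lowest, median and highest level of 92.1, 136 and 185 scaled TPM in Old livers, against 87.5, 126 and 146 scaled TPM in Young livers. Old replicate 14 and Young replicate 1 were the lowest of their groups, and 1 of 10 Old livers lay below the Young median. The log2 fold of Old over Young was 0.21 ± 0.12 (SE, limma adjusted p = 0.323), and without Old replicate 14 it was 0.29 (adjusted p = 0.0948).

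The 4 members of the carnitine shuttle did not pass the test, with folds from -0.26 to -0.075 and a median of -0.16. Cpt1a, the outer-membrane carnitine palmitoyltransferase and the step at which malonyl-CoA controls entry, had 365, 497 and 657 scaled TPM in Old livers, against 389, 546 and 707 scaled TPM in Young livers as lowest, median and highest values. Its groups overlapped over nearly the whole range, with a log2 fold of -0.094 ± 0.13 (SE, adjusted p = 0.692) and of -0.040 without Old replicate 14. Cpt2, the inner-membrane transferase, had 87.4, 196 and 233 scaled TPM in Old livers, against 199.8, 214 and 278 scaled TPM in Young livers, and its lowest value, in Old replicate 14, lay far under the next Old value of 167. The log2 fold of Cpt2 was -0.26 ± 0.14 (SE, adjusted p = 0.273) and -0.13 without that liver. Slc25a20, the carnitine-acylcarnitine carrier, showed the same low liver, with 122, 237 and 286 scaled TPM in Old livers, against 225, 242 and 305 scaled TPM in Young livers. Crat, which forms acetylcarnitine from short chains, averaged 68.1 ± 14.8 scaled TPM in Old livers (SD, n = 10) and 69.5 ± 11.3 in Young livers (SD, n = 8). The 2 fold values were -0.22 ± 0.12 for Slc25a20 and -0.075 ± 0.14 for Crat (log2, SE, adjusted p = 0.301 and 0.775). On leaving out Old replicate 14 the fold was -0.11 for Slc25a20 and turned to 0.020 for Crat.

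Within the mitochondrial spiral 7 of 8 members had folds below 0 and none was called, with a median log2 fold of -0.11. The acyl-CoA dehydrogenases, which take the first step, are ordered by the chain length they prefer. Acadvl, for very long chains, had 351, 481 and 573 scaled TPM in Old livers, against 500.2, 538 and 598 scaled TPM in Young livers. Its Old livers lay below the Young median in 8 of 10 cases, with a log2 fold of -0.22 ± 0.087 (SE) that missed the threshold (unadjusted p = 0.0192, limma adjusted p = 0.134). The fold of Acadvl was -0.17 without Old replicate 14 (limma unadjusted p = 0.0308, adjusted p = 0.159). Acadl, for long chains, averaged 356 ± 33.5 scaled TPM in Old livers (SD, n = 10) and 381 ± 31.2 in Young livers (SD, n = 8), with a log2 fold of -0.10 ± 0.072 (SE). Acadm, for medium chains, had 301, 637 and 682 scaled TPM in Old livers, against 558, 582 and 716 scaled TPM in Young livers. Old replicates 14 and 8, with 301 and 469.8 scaled TPM, lay below every Young liver. The log2 fold turned its sign without replicate 14, being -0.077 ± 0.13 (SE) with all livers and 0.040 without it. Acads, for short chains, averaged 138 ± 15.8 scaled TPM in Old livers (SD, n = 10) and 148 ± 14.2 in Young livers (SD, n = 8), with a log2 fold of -0.11 ± 0.077 (SE).

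The later steps of the spiral did not pass the test either. Hadha, which hydrates and dehydrogenates long chains, had 462, 579.7 and 673 scaled TPM in Old livers, against 534, 594 and 810.4 scaled TPM in Young livers, with a log2 fold of -0.13 ± 0.078 (SE, adjusted p = 0.324). The fold of Hadha was -0.10 without Old replicate 14. Hadhb, the thiolase subunit of the same complex, had 77.7, 94.9 and 121 scaled TPM in Old livers, against 92.6, 103 and 135 scaled TPM in Young livers, with a log2 fold of -0.18 ± 0.083 (SE, adjusted p = 0.210). The mean scaled TPM of Hadha was 6.10 times that of Hadhb in Old and 5.84 times in Young livers. These ratios rest on the gene lengths behind the TPM values, which are not given. Recovered reads were 59255 to 94379 per library for Hadha and 19531 to 41024 for Hadhb. Their longest coding transcripts have 4017 and 2048 bases, so the ratios cannot be read as a difference in transcript number. Both genes start from the shared stretch printed above. For Hadhb, however, 62.4% of the 50-base words of its transcript recur in other genes, mostly Gm13910, so its level is uncertain. Hadh, the dehydrogenase for shorter chains, was 1 of 3 members with a fold above 0, at 0.083 ± 0.079 (SE, adjusted p = 0.554) and 0.13 without Old replicate 14, and had 341, 497 and 604 scaled TPM in Old livers, against 372, 455 and 533 scaled TPM in Young livers. Acaa2, the last thiolase of the spiral, was the most abundant of these 8 genes, at 1249.6 ± 153 scaled TPM in Old livers (SD, n = 10) and 1332 ± 198 in Young livers (SD, n = 8), with a log2 fold of -0.11 ± 0.090 (SE). The fold of Acaa2 was -0.086 without Old replicate 14.

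Enzymes that prepare unsaturated chains had folds between -0.24 and -0.11. Decr1, the dienoyl-CoA reductase, had 114, 241 and 288 scaled TPM in Old livers, against 218, 248 and 319 scaled TPM in Young livers, and its low end was Old replicate 14. Its log2 fold was -0.19 ± 0.13 (SE, adjusted p = 0.418) with that liver and -0.069 without it. The enoyl-CoA isomerases Eci1 and Eci2 had log2 folds of -0.11 ± 0.11 and -0.24 ± 0.11 (SE, adjusted p = 0.547 and 0.210), and of -0.037 and -0.15 without Old replicate 14. Eci2 lay below the Young median in 9 of 10 Old livers, with 91.9, 159.8 and 194 scaled TPM in Old livers, against 155, 175 and 203 scaled TPM in Young livers, and 7.19% of its 50-base words recur in Eci3. Electron transfer flavoprotein is built from Etfa and Etfb, and Etfdh passes its electrons to ubiquinone. Etfa, whose upstream stretch holds the match printed above, had 42.4, 61.8 and 71.9 scaled TPM in Old livers, against 56.8, 62.9 and 85.0 scaled TPM in Young livers. Etfb averaged 594 ± 77.9 scaled TPM in Old livers (SD, n = 10) and 664 ± 80.8 in Young livers (SD, n = 8) and Etfdh 474 ± 92.3 scaled TPM in Old livers (SD, n = 10) and 509.9 ± 32.6 in Young livers (SD, n = 8). Their log2 folds were -0.10 ± 0.093, -0.17 ± 0.092 and -0.15 ± 0.13 for Etfa, Etfb and Etfdh (SE, adjusted p = 0.527, 0.285 and 0.503). On leaving out Old replicate 14 they were -0.045, -0.14 and -0.028 for Etfa, Etfb and Etfdh. The level of Etfb is uncertain, since 67.3% of its 50-base words recur in Gm45233.

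Ehhadh, the bifunctional enzyme of peroxisomes that hydrates and dehydrogenates the chain and takes part in the oxidation of dicarboxylic acids, fell in Old livers. Its levels in Old replicates 5, 6, 7, 8, 9, 14, 15, 16, 17 and 18 were 1025, 774, 529, 497, 632, 885, 589, 1409, 1269 and 689 scaled TPM. Those in Young replicates 1, 2, 3, 4, 10, 11, 12 and 13 were 2031, 1269.9, 971, 1192, 1096, 1744, 1547 and 1146 scaled TPM. Old replicates 16 and 17 reached the middle of the Young range, Old replicate 5 its lower end, and the other 7 Old livers lay below every Young liver. The mean was 829.9 ± 314 scaled TPM in Old livers (SD, n = 10) and 1375 ± 365 in Young livers (SD, n = 8), a ratio of 0.604. In limma the log2 fold was -0.74 ± 0.20 (SE, adjusted p = 0.0440), and -0.74 without Old replicate 14 (adjusted p = 0.0432). The call was close to the threshold. It was lost on leaving out any of Old replicates 6, 7, 8, 9, 15 and 18 or Young replicates 1, 2, 4, 10, 11, 12 and 13, with adjusted p between 0.0576 and 0.101 and folds between -0.77 and -0.60. Among AllPrep libraries the fold was -1.07 (adjusted p = 0.0993) and among RNeasy libraries -0.49 (adjusted p = 0.627). With clamp body weight as a further term it was 0.0125 ± 0.29 (SE, adjusted p = 0.99).

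Acaa1b, a peroxisomal thiolase, had 603, 969.8 and 1172 scaled TPM in Old livers, against 887, 1162 and 1428 scaled TPM in Young livers. In 8 of 10 Old livers it lay below the Young median, with a log2 fold of -0.32 ± 0.14 (SE, limma unadjusted p = 0.0315, adjusted p = 0.171). The fold of Acaa1b was -0.24 without Old replicate 14, its lowest liver (limma unadjusted p = 0.0607, adjusted p = 0.225). Of the 50-base words of Acaa1b, 35.5% recur in Acaa1a. Pex11a, a membrane protein involved in peroxisome division, averaged 171 ± 48.4 scaled TPM in Old livers (SD, n = 10) and 201 ± 49.3 in Young livers (SD, n = 8), with a log2 fold of -0.26 ± 0.20 (SE, adjusted p = 0.444) and of -0.13 without Old replicate 14.

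The omega hydroxylases had the lowest median log2 fold of the role groups, -0.84, but none of the 3 was called with all libraries. Cyp4a10 had 479.7, 2418 and 3195 scaled TPM in Old livers, against 2720.1, 2884 and 3922 scaled TPM in Young livers. Old replicate 14, with 479.7 scaled TPM, was far under the other Old livers, of which the lowest had 1456 scaled TPM. The log2 fold was -0.57 ± 0.28 (SE, adjusted p = 0.233), and -0.29 without that liver (adjusted p = 0.193). Cyp4a14, another fatty acid hydroxylase, had 279.7, 2085 and 2794 scaled TPM in Old livers, against 2294, 2675 and 4049 scaled TPM in Young livers. In 9 of 10 Old livers it lay below the Young median, and Old replicates 8, 14 and 15, with 899, 279.7 and 1127 scaled TPM, stood far under the lowest Young liver. Its log2 fold was -0.87 ± 0.35 (SE, adjusted p = 0.148) with all livers and -0.55 (adjusted p = 0.121) without Old replicate 14.

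Cyp4a31, of the same family, was high in that liver. It had 15.7, 19.5 and 89.3 scaled TPM in Old livers, against 33.5, 39.3 and 113 scaled TPM in Young livers, and the highest Old value was that of replicate 14, the liver with the lowest Cyp4a10 and Cyp4a14. The other 9 Old livers ran from 15.7 to 50.9 scaled TPM, and 2 of them, replicates 5 and 6, lay above the lowest Young value. With all livers the log2 fold was -0.84 ± 0.35 (SE, adjusted p = 0.156), whereas without Old replicate 14 it was -1.06 (adjusted p = 0.0420) and passed the test. With clamp body weight as a term the fold was 0.057. Cyp4a10 and Cyp4a31 share words with each other and with Cyp4a32, and 30.5% and 21.8% of their 50-base words recur in another gene, so that their levels are uncertain, while for Cyp4a14 the share was 0.245%.

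The acyl-CoA thioesterases Acot1 in the cytosol and Acot2 in mitochondria release free fatty acids from acyl-CoA. Acot1 had 26.3, 143 and 342 scaled TPM in Old livers, against 118, 243 and 537 scaled TPM in Young livers. Its SD on the log2 scale was the largest among the members in Old livers, 1.15, and the groups overlapped broadly, with the lowest livers Old and the highest Young. The log2 fold of Acot1 was -0.81 ± 0.44 (SE, adjusted p = 0.273), and -0.51 without Old replicate 14. Acot2 had 14.7, 29.6 and 59.2 scaled TPM in Old livers, against 24.5, 39.8 and 72.6 scaled TPM in Young livers, with a log2 fold of -0.33 ± 0.24 (SE, adjusted p = 0.441). The pair share sequence, with 33.6% and 27.7% of their 50-base words recurring in another gene. Angptl4, a secreted inhibitor of lipoprotein lipase, averaged 108 ± 31.1 scaled TPM in Old livers (SD, n = 10) and 107 ± 21.8 in Young livers (SD, n = 8), with a log2 fold of -0.00489 ± 0.17 (SE) that turned to 0.046 without Old replicate 14. Vnn1, a pantetheinase and a PPAR-alpha target of the fasted liver, averaged 204 ± 54.3 scaled TPM in Old livers (SD, n = 10) and 161 ± 46.7 in Young livers (SD, n = 8), with a log2 fold of 0.29 ± 0.15 (SE, adjusted p = 0.249), the highest of the members.

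**Figure D3:**
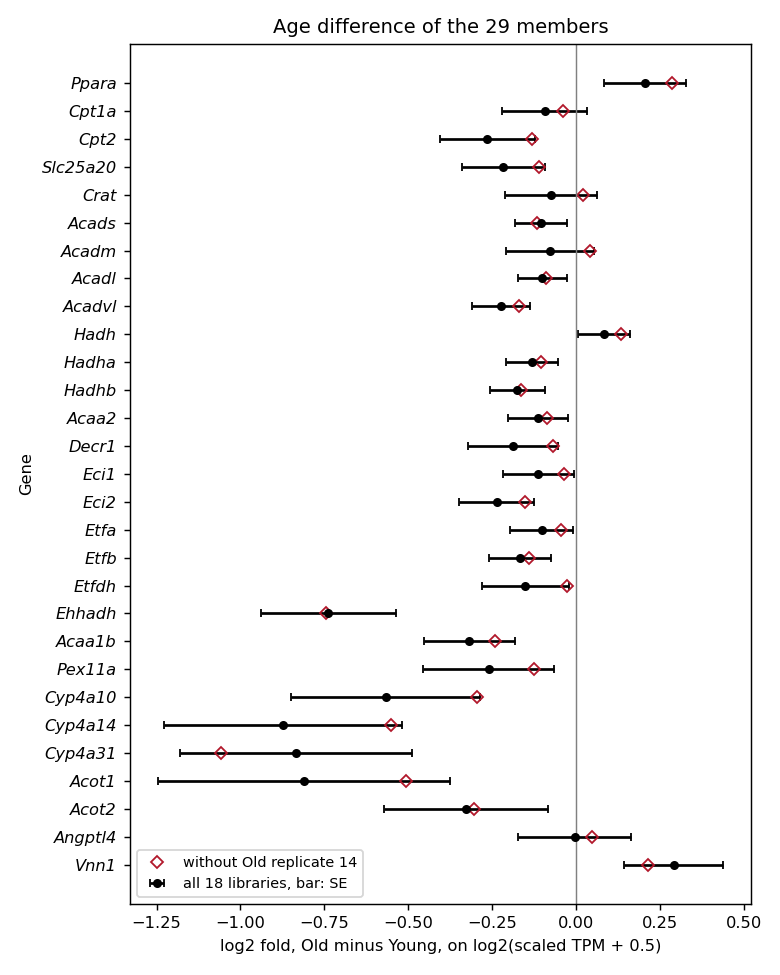
Log2 fold of Old over Young (x axis) for each of the 29 members (rows, by role) on the scale of log2(scaled TPM + 0.5), with black points and SE bars for all 18 libraries and open red diamonds without Old replicate 14. The folds range from -0.87 for Cyp4a14 to 0.29 for Vnn1, and without that liver most points move towards 0 while Cyp4a31 moves to -1.06.

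**Figure D4:**
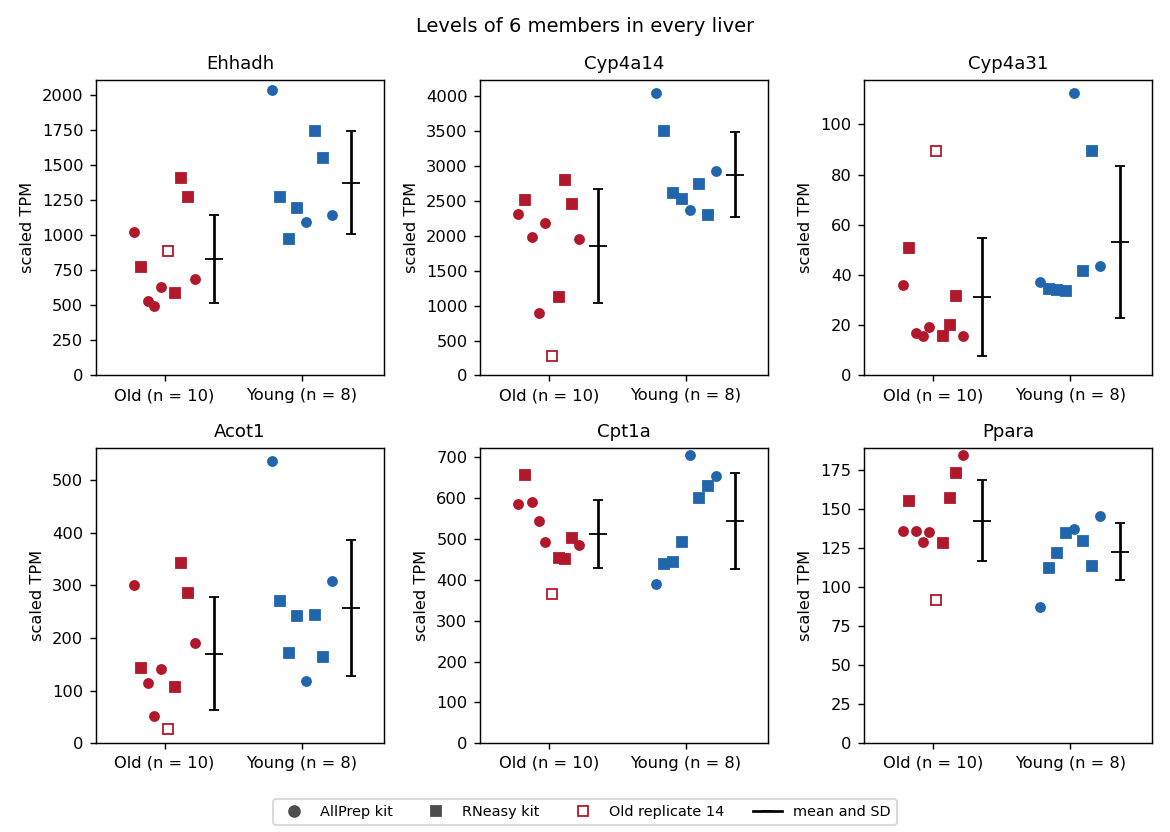
Scaled TPM (y axes, from 0) of Ehhadh, Cyp4a14, Cyp4a31, Acot1, Cpt1a and Ppara in each Old (left, n = 10) and Young liver (right, n = 8), with circles for the AllPrep kit, squares for the RNeasy kit, an open square for Old replicate 14, and black bars for the mean and SD. Old replicate 14 is lowest of the Old livers for Cyp4a14, Acot1, Cpt1a and Ppara and highest for Cyp4a31, and the groups overlap for all 6 genes.

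The members varied more between Old than between Young livers where Old replicate 14 was included. The median SD of the members was 0.34 log2 units in Old and 0.19 in Young livers, beside 0.25 and 0.19 over all genes tested. Without Old replicate 14 it was 0.18 in Old livers, beside 0.20 over all genes. In Old livers, replicate 14 was the lowest in 20 members and replicate 8 in 6, and replicate 16 was the highest in 9. In Young livers, replicate 1 was the highest in 20 members and replicate 3 the lowest in 14. The members together held 1.37% ± 0.258 of the TPM in Old livers (SD, n = 10) and 1.63% ± 0.165 in Young livers (SD, n = 8). Without Old replicate 14 the Old share was 1.42%.

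Between the extraction kits 3 of 29 members were called higher and none lower, no more than the share of all genes. Hadh, Hadha and Vnn1 were called higher in AllPrep than in RNeasy libraries, by 0.30, 0.23 and 0.45 log2 units (limma adjusted p = 0.0111, 0.0459 and 0.0363), against 11.8% of all genes called higher and 10.7% lower. In all, 26 of 29 members had kit folds above 0, with a median of 0.13. Over all genes the median was 0.072, with 36.4% below 0. No member was called for a difference of the age effect between kits (limma interaction), where 0.0072% of all genes were called lower and none higher. An unadjusted p under 0.05 was seen in 599 genes (4.31%) and 2 members (6.90%), Hadhb and Angptl4. The age fold in AllPrep minus that in RNeasy livers had a median of -0.13 over the members, with 21 of 29 below 0. Over all genes the median was 0.016, with 46.9% below 0. Leaving out Old replicate 14 gave a median of -0.28 over the members, with all 29 below 0. Over all genes it then was -0.015, with 52.8% below 0. Without that liver 6 members, or 20.7%, had an unadjusted p under 0.05, against 9.21% of all genes, and none was called (smallest adjusted p of all genes = 0.00552, of the members = 0.306). Only 3 Young livers were AllPrep. Young replicates 1 and 13 were among them and had the highest member medians of the Young livers, 0.27 and 0.17 log2 units above the Young mean. The interaction was not refitted without either. Angptl4 averaged 93.4 ± 24.7 scaled TPM in Old (SD, n = 5) and 129.9 ± 10.4 in Young AllPrep livers (SD, n = 3). Among RNeasy livers it averaged 123 ± 31.9 in Old (SD, n = 5) and 92.7 ± 11.4 in Young (SD, n = 5). Its folds thus had opposite signs in the kits, -0.51 and 0.37, but the interaction missed the threshold (limma unadjusted p = 0.00518, adjusted p = 0.995).

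Among mice of the same age and kit, no member followed the labelled fat oxidation flux past the threshold. The slope, in log2 units per unit of flux, was tested in a limma fit that also held age and kit. It was called for 0% of all genes in either direction, with 261 genes (1.88%) and 1 member (3.45%) at an unadjusted p under 0.05. The median slope was -0.044 over the members and -0.035 over all genes. Cyp4a31 was the member with the unadjusted p under 0.05, with a slope of 1.08 ± 0.43 (SE, unadjusted p = 0.0216, adjusted p = 0.981), and without Old replicate 14 it was 0.76 (unadjusted p = 0.0760). Ehhadh had a slope of 0.25 ± 0.29 and Cpt1a of 0.079 ± 0.18 (SE). No gene was called for a slope that differed between the ages, with 429 genes (3.09%) and no member at an unadjusted p under 0.05. The median difference in slope, Old minus Young, was -0.077 over the members and -0.050 over all genes. Without Old replicate 14 it was 0.23, with 26 of 29 above 0, beside 0.021 over all genes. Cyp4a14 alone of the members (3.45%) then had an unadjusted p under 0.05, beside 766 genes (5.51%). Leaving out any other 1 library gave medians from -0.28, without Old replicate 8, to -0.034, without Young replicate 10. Without Old replicate 8, 23 of 29 differences were below 0.

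Old replicate 14 had the highest flux of the Old mice, 3.04, and the lowest median of the members, -0.60 log2 units relative to the Young mean. Without it the median slope of the members was 0.13, with 26 of 29 above 0, beside -0.0091 over all genes. An unadjusted p under 0.05 was then seen in 115 genes (0.828%) and no member. Leaving out any other 1 library gave medians from -0.12, without Old replicate 8, to 0.014, without Old replicate 15. Without Old replicate 8, 20 of 29 slopes were below 0, beside a median of -0.040 over all genes. The median slopes of the kits had opposite signs with Old replicate 14 and the same sign without it. Among the 8 AllPrep mice 27 of 29 members had slopes above 0, with a median of 0.57 beside 0.0036 over all genes, and 17 of 29 had an unadjusted p under 0.05, against 9.49% of all genes. No gene was called there after adjustment (smallest adjusted p = 0.111). Old replicate 8 had the lowest flux among these mice, 2.09, and the lowest median of the members among them, -0.39 log2 units relative to the Young mean. Acot1 had the steepest slope in AllPrep mice, 3.33 ± 0.48 (SE, unadjusted p = 8.76e-05). Among the 10 RNeasy mice 5 of 29 members had slopes above 0, with a median of -0.20 beside -0.050 over all genes, and 1 member, Cyp4a31, had an unadjusted p under 0.05, or 3.45%, against 5.48% of all genes. Without Old replicate 14, which is 1 of these 10, 19 of 29 were above 0, with a median of 0.046 beside -0.0093 over all genes, and 2 members, Cpt1a and Cyp4a31, had an unadjusted p under 0.05, against 4.07% of all genes. The difference in slope between the kits was not tested.

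**Figure D5:**
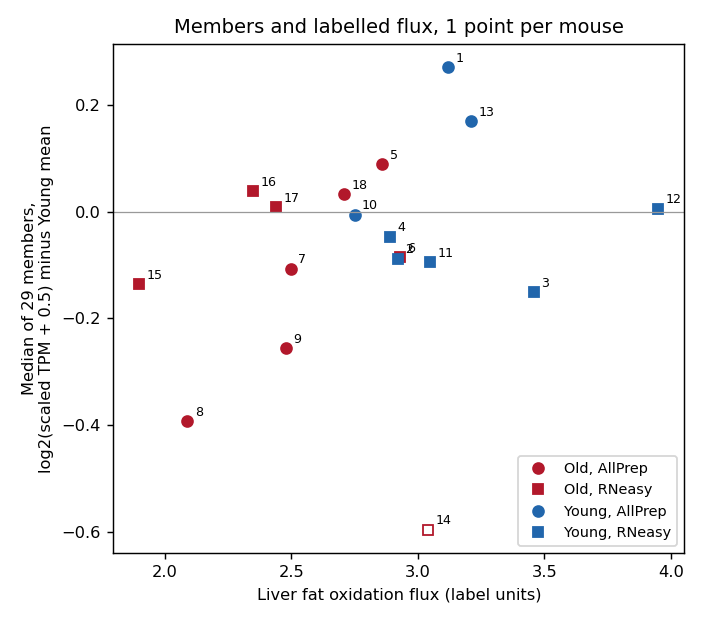
Median over the 29 members of log2(scaled TPM + 0.5) minus the Young mean (y axis) against the labelled liver fat oxidation flux (x axis, units of the labels), with 1 numbered point per mouse, red for Old and blue for Young, circles for AllPrep and squares for RNeasy. Old replicate 14, the open square at a flux of 3.04, lies lowest. Young replicate 12, at the highest flux of 3.95, lies at 0.0057. Young replicate 3, at a flux of 3.46, lies at -0.15, the lowest of the Young mice.

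Within each age, the levels of 6 members were set against flux, namely Ppara, Cpt1a, Cpt2, Acadm, Hadha and Ehhadh. Pearson's r ran from -0.325 for Cpt2 to 0.318 for Ehhadh in Old mice (n = 10) and from -0.226 for Ppara to 0.186 for Acadm in Young mice (n = 8). Spearman's rho ran from -0.103 to 0.285 in Old and from -0.286 to 0.143 in Young mice. None of the 12 relations passed a permutation test (smallest unadjusted p = 0.368, adjusted p = 0.938 for each r and 1 for each rho). Without Old replicate 14 every r in Old mice was above 0, from 0.299 for Ehhadh to 0.713 for Hadha, with 0.426 for Cpt2 and 0.448 for Acadm (n = 9, not tested). That liver was singled out by its low levels in most members and had the highest Old flux. These r therefore cannot test a relation to flux, and no other mouse was left out by itself here. Leaving out the 2 mice farthest from the median flux, replicates 14 and 15 in Old and 3 and 12 in Young, gave r between 0.175 and 0.551 in Old (n = 8) and between -0.206 and 0.644 in Young mice (n = 6).

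Other genes of the pathway were read from 7 lists. Of all genes tested, 2.09% were called higher and 2.35% lower in Old livers. Peroxisomal oxidation had 1 gene called higher and none lower of 22 tested, with a median log2 fold of -0.17. The called gene was Abcd2, a peroxisomal importer of very-long-chain acyl-CoA, at 34.1 ± 22.3 scaled TPM in Old livers (SD, n = 10) and 14.3 ± 2.94 in Young livers (SD, n = 8). In limma it stood 1.07 ± 0.25 higher on the log2 scale (SE, adjusted p = 0.0222), and 0.85 without Old replicate 14 (adjusted p = 0.00503), whose level of 93.9 scaled TPM was the highest. Uptake and activation had 1 called higher of 18, Cd36, which takes fatty acids into the cell, at 117 ± 43.4 scaled TPM in Old livers (SD, n = 10) and 66.8 ± 18.2 in Young livers (SD, n = 8). The log2 fold of Cd36 was 0.66 ± 0.18 (SE, adjusted p = 0.0440), and 0.59 without Old replicate 14, which lost the call (adjusted p = 0.0531). The median of that list was -0.13.

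Omega-oxidation beyond the members had 1 gene called lower of 10, Cyp4a12b, a fatty acid hydroxylase known for higher levels in male mice. It averaged 34.0 ± 20.8 scaled TPM in Old livers (SD, n = 10) and 102 ± 14.9 in Young livers (SD, n = 8), with a log2 fold of -2.03 ± 0.53 (SE, adjusted p = 0.0382), and -1.51 without Old replicate 14 (adjusted p = 0.00503), where its level was 1.28 scaled TPM. The highest Old level, 64.5 scaled TPM, lay below the lowest Young level, 86.2. Cyp4a12a, its near-identical neighbour, had a log2 fold of -1.36 ± 0.48 (SE, adjusted p = 0.106) and was called without that liver, at -0.86 (adjusted p = 0.0138), and reads of the pair may have been split by the counting. The median of the list was -0.27.

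Other PPAR-alpha targets had 1 gene called higher of 19, Cidea, a lipid droplet protein that is rare in lean liver, at 87.3 ± 60.8 scaled TPM in Old livers (SD, n = 10) and 19.5 ± 16.7 in Young livers (SD, n = 8). Its log2 fold was 2.01 ± 0.55 (SE, adjusted p = 0.0447), and 2.36 without Old replicate 14 (adjusted p = 0.00883), where it was 6.65 scaled TPM, the lowest Old level. The list had a median of 0.073. No gene was called among 18 further genes of mitochondrial beta-oxidation (3 at an unadjusted p under 0.05, median -0.042), 7 of ketogenesis (2, median 0.092) and 19 receptor partners and coregulators (4, median -0.068). The genes at that p made up 16.7%, 28.6% and 21.1% of these lists, against 23.4% of all genes. In the last list Ppargc1a, the coactivator PGC-1-alpha, had a log2 fold of -0.41 ± 0.12 and Nr0b2, the corepressor SHP, of 1.07 ± 0.31 (SE, limma adjusted p = 0.0647 and 0.0544). The genes with the smallest p among the uncalled of the other lists were Acad12 and Acad10, Pex16, Acsm1, Oxct1 and Aacs, and Pnpla2, with log2 folds between -0.40 and 0.69 and adjusted p between 0.0572 and 0.172. Within either kit alone none of Abcd2, Cd36, Cyp4a12b and Cidea was called, with log2 folds of 1.09, 0.90, -1.97 and 2.37 among AllPrep and 1.06, 0.48, -2.07 and 1.74 among RNeasy livers. None of the 7 lists had a gene called for a slope on flux.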

How the data were processed

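RNA-seq of 18 livers was deposited by the authors as a table of TPM for 18946 genes, and all 18 columns were assigned to mice by their labels. The submitters' processing notes list the tools STAR 2.7.9a, Subread and featureCounts and the builds GRCm39 and mm10, with no role for either build. Not given in the sources used here are the gene lengths, the annotation, the strand setting and the handling of reads that match several genes. No coordinates of the files are therefore given, and a gene that shares sequence with others is uncertain: of the 29 members, 8 have over 5% of the 50-base words of their longest coding transcript (GENCODE) in another gene.

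The members, the gene lists and the marker lists were chosen with earlier results of these data known. Named genes were all members, and of each further list the called genes, filled up to 2 by smallest p. Groups and kits came from the labels, and each mouse is a separate animal with 1 date of death for all.

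Deposited TPM values were divided by a trimmed mean of log ratios (30% of ratios and 5% of levels trimmed at either end). The filter asked for 0.5 TPM or more in 8 or more libraries and kept 13895 genes. limma 3.58.1 in R 4.3.3 was fitted to log2(scaled TPM + 0.5) with a variance trend and Benjamini-Hochberg adjustment, with calls at an adjusted p under 0.05. Folds on this scale understate changes of low genes. The age and flux fits were also run on simulated counts that held no kit effect, no factor per library and no outlying library. That run does not cover these features, and its outcome is not given here. Flux was compared with exact permutation tests, and correlations with exact permutations in Young and 100000 permutations in Old mice. TPM carries no depth, but ratios within a gene gave whole read numbers for all 18946 genes within 0.001, used for depth and for 1 alternative, limma-voom. Python 3.11.15, numpy 2.4.6, scipy 1.17.1, pandas 2.3.3 and matplotlib 3.10.9 were used elsewhere.

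Other settings tried were no kit term, either kit by itself, scaling, filter, pseudocount, library weights, body weight, flux label, each age alone and each library left out. RNeasy libraries without Old replicate 14 were added after seeing the data.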

Additional observations from a re-analysis of the deposited data

Results flagged for a closer look

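The 29 members and the flux label, in 2 ages each, made 60 groups. In 14 of them a mouse had a gap to its nearest neighbour that was large for the range of its group. Chance gives about 1 in 20 for independent groups. The same mice recur in these groups, so 14 of 60 cannot be set against that rate. Of the 14, 10 were in Old and 4 in Young livers. In 9 of the 10 Old groups the mouse was Old replicate 14, lowest in each.

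On the scale of log2(scaled TPM + 0.5), Old replicate 14 had 6.53 for Ppara, with the next Old liver at 7.01. For the carnitine shuttle it had 6.46 for Cpt2 and 6.93 for Slc25a20, with the next at 7.39 and 7.58. Acadm stood at 8.23, with the next at 8.88, and Decr1 at 6.84, with the next at 7.67. In electron transfer, Etfa was 5.42 and Etfdh 7.88, with the next at 5.79 and 8.71. For the omega hydroxylases it had 8.91 for Cyp4a10 and 8.13 for Cyp4a14, with the next at 10.5 and 9.81. The remaining Old case was Acadl in replicate 8, at 8.13 with the next liver at 8.38.

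In Young livers all 4 cases were the highest of their group. Young replicate 1 had 8.82 for Acadl, 7.09 for Hadhb and 6.42 for Etfa, with the next livers at 8.61, 6.80 and 6.08. Young replicate 13 had 8.12 for Cpt2, with the next at 7.80.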

How the results depend on the processing

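Recomputing the 29 age folds under 31 alternatives gave 899 values, of which 844 kept direction and side of the threshold, 18 lost a call, 2 gained one and 35 turned their sign, in 18 members. The cause of each change was not tested. The count of members called lower, 1 with all libraries, was 0 with AllPrep or RNeasy libraries alone, without the factor per library, without a filter, with body weight, and with RNeasy libraries without Old replicate 14, and 2 with library weights. It ranged from 0 to 2 on leaving out 1 library, with 2 without Old replicate 14.

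Genes called higher and lower numbered 97 and 59 with AllPrep, 6 and 9 with RNeasy, 34 and 26 with RNeasy without Old replicate 14, 680 and 710 with library weights and 3 and 0 with body weight. Without the factor per library 188 were lower. Leaving out 1 library gave 141 to 469 higher and 172 to 520 lower. The kit by age interaction called 1 gene lower, and 3 without Old replicate 14. Flux differed by -0.499 in AllPrep and -0.722 in RNeasy mice, past no threshold in either. The members' median slope on flux was -0.044, and 0.571 with AllPrep.

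With body weight, folds turned to 0.059 for Acadl, -0.049 for Hadh, 0.062 for Hadhb, 0.0125 for Ehhadh, 0.057 for Cyp4a31, 0.33 for Acot2, 0.021 for Etfb and 0.46 for Angptl4. With library weights they turned to 0.064 for Acadm, 0.12 for Angptl4 and 0.025 for Eci1. With RNeasy without Old replicate 14 they turned to 0.12 for Acadm, 0.0081 for Hadhb, 0.019 for Slc25a20, 0.042 for Acaa2, 0.51 for Angptl4, 0.022 for Etfa, 0.046 for Etfb, 0.063 for Etfdh, 0.082 for Pex11a, 0.083 for Decr1, 0.081 for Eci1, 0.0066 for Eci2 and 0.056 for Crat. Angptl4 also turned to 0.37 with RNeasy and 0.070 without the factor. AllPrep slopes turned to -0.051 for Cyp4a31 and -0.20 for Cpt1a. Leaving out 1 library gave folds from -0.12 to 0.040 for Acadm, -0.098 to 0.075 for Angptl4 and -0.13 to 0.020 for Crat, and Cpt1a slopes from -0.059 to 0.20.

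No paired analysis was possible because no replicate number occurs in both ages. Depth limited no member, but 18 mice and 2 kits limit the precision, and body weight separates the ages.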
